A study of Bos taurus with 16 samples.

Results

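CISH (cytokine inducible SH2 containing protein, ENSBTAG00000022622) was followed in subcutaneous adipose tissue and gluteus medius skeletal muscle of dairy calves. It was found by its Ensembl identifier, which stood in 1 row of every library, and it was 1 of 44265 features counted. The gene was chosen by its muscle values, which had already been seen to differ between the treatments. Its muscle level, its muscle logFC and any ratio built on the muscle difference are therefore descriptions without a test, whereas its adipose values and its mean level in adipose against muscle were tested.

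The animals were 8 Holstein bull calves, given as 21 days of age when the supplemented milk replacer was fed. All received 8 L of milk replacer per day. The morning feed carried either saline (CON, 4 calves) or 5-hydroxytryptophan (5-HTP, the direct precursor of serotonin, 4 calves) for 10 days. Both tissues were harvested after the supplementation ended, which gave 16 poly-A RNA-Seq libraries, and calves 1 to 4 are CON and calves 5 to 8 are 5-HTP in what follows. Each library is a piece of whole tissue from 1 calf, and nothing in the labels limits it to 1 cell type.

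Cytokine receptors without kinase activity of their own, including those for growth hormone, prolactin, erythropoietin and several interleukins, signal through JAK kinases and STAT transcription factors. CISH is a member of the SOCS family whose transcription is raised by STAT5. Its SH2 domain binds phosphorylated receptor chains, its SOCS box recruits a ubiquitin ligase, and in this way it acts as a feedback inhibitor of the pathway that induces it. Growth hormone acts on both tissues in growing animals, through growth and local IGF-1 in muscle and through lipolysis in fat.

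The sequences at hand for bovine CISH were the primers with which the study quantified its muscle transcript by RT-qPCR. They are shown as the primers the study lists for CISH, and they were not matched to the feature counted here. Each has 20 bases and a GC content of 55%. They are given in the letter order of the source, which heads the reverse primer 3′ to 5′, and the orientation of that primer could not be checked without a bovine sequence.
Forward: ctcctaccttcgggaatctg
Reverse as listed: tgctgtcacgtaccaggaag

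Total counts per library ranged from 17289845 to 28649548. The 10 most abundant features took 5.39% to 7.53% of the counts in adipose and 19.1% to 24.0% in muscle. TMM factors correct library totals for differences in composition between libraries. Estimated within each tissue, they lay between 0.838 (muscle, CON calf 1) and 1.08 and did not adjust for the difference between the tissues. Tissue identity was checked with the markers that could be paired with a symbol. The TTN locus is an assembled locus without an Ensembl identifier, which the study names after titin, the giant sarcomere protein. It had 0 counts in the 4 CON adipose libraries and 0 to 11 counts in the 5-HTP adipose libraries. In muscle the same locus ranged from 12.8 to 59.4 TMM-normalized CPM (counts scaled to a common library size). CFD (adipsin, secreted by adipocytes) was higher in adipose than in muscle by 2.26 on the log2 scale, in 1 model of all 16 libraries. Of 6 adipocyte and 7 skeletal muscle markers listed, CFD and TTN were the only ones with a symbol here, and the rest were not analysed.

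In muscle, CISH was lower in 5-HTP-supplemented calves than in CON calves, by 6.31-fold in the group means. The 4 CON calves had 4326, 2929, 1022 and 5694 CISH counts. After TMM normalization within muscle, these were 202, 102, 39.8 and 192 CPM. CON calves 1 and 4 lay close together at the top, and CON calf 3 stood well under the others.

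The 5-HTP calves had 687, 613, 200 and 580 CISH counts in muscle. Their normalized levels were 22.2, 25.4, 8.97 and 28.4 CPM. Calves 5, 6 and 8 were close to each other, and calf 7 was the lowest of the 8 muscle libraries. Its 200 counts have an exact Poisson interval (95%) of 173 to 230 counts. Such intervals cover counting error alone.

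The muscle groups did not overlap. The lowest CON calf (39.8 CPM) was 1.40 times the highest 5-HTP calf (28.4 CPM), and CON was the higher calf in 16 of 16 pairs of a CON and a 5-HTP calf. Among the 16878 features tested in muscle, 1.37% had all 4 5-HTP calves under all 4 CON calves. Because this separation is what led to the choice of CISH, nothing is read from that share.

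The CON mean in muscle was 134 ± 77.3 CPM and the 5-HTP mean was 21.2 ± 8.56 CPM (SD, n = 4 each). The fitted muscle logFC was −2.66 with a standard error of 0.45, and its 95% interval ran from −3.53 to −1.78. This interval does not allow for the choice of CISH on the same contrast and is no test. Leaving out 1 calf at a time moved the muscle logFC between −2.96, without CON calf 3, and −2.39, without CON calf 1.

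**Figure D1:**
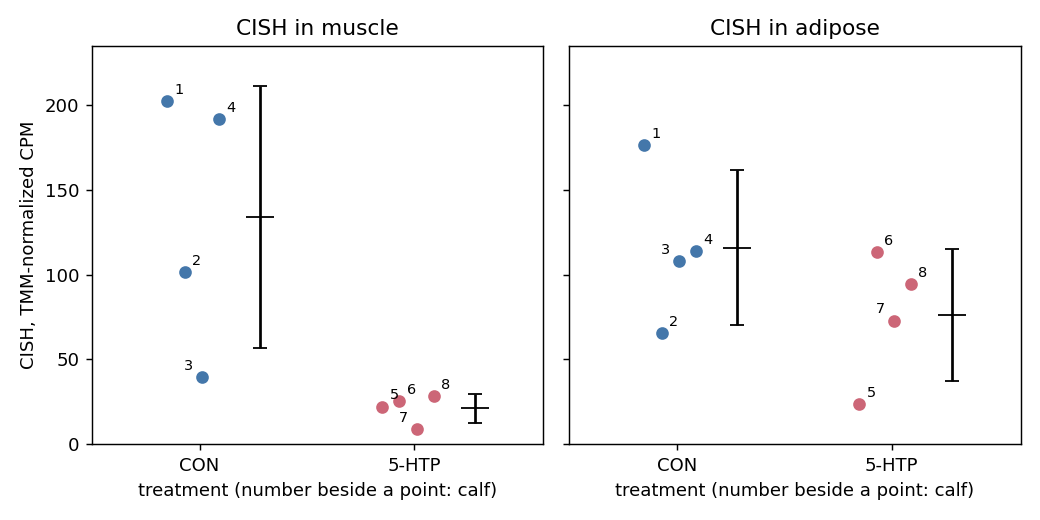
CISH level in TMM-normalized CPM (vertical axis, from 0) for each calf in muscle and in adipose, by treatment. Points are calves with their numbers, and the bar beside each group is the mean with its SD. In muscle the 5-HTP calves (8.97 to 28.4 CPM) lie under every CON calf (39.8 to 202 CPM), and in adipose the groups overlap.

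In adipose, the treatments were not distinguished by CISH. The 4 CON calves had 3970, 1021, 2185 and 2162 counts, or 177, 65.6, 108 and 114 CPM after TMM normalization within adipose. The 5-HTP calves had 561, 2776, 1691 and 1631 counts, or 23.5, 114, 72.9 and 94.4 CPM. CON calf 1 was the highest and 5-HTP calf 5 the lowest, and the remaining 6 calves lay between 65.6 and 114 CPM with both treatments mixed.

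The adipose means were 116 ± 45.8 CPM in CON and 76.1 ± 38.8 CPM in 5-HTP (SD, n = 4 each), so that the 5-HTP mean was 34.4% under the CON mean. CON was the higher calf in 12 of 16 pairs. The adipose logFC was −0.61 with a standard error of 0.43 and a 95% interval from −1.45 to 0.23, which covers folds from 0.365 to 1.18. It did not pass the likelihood ratio test of edgeR (FDR = 0.999, unadjusted P = 0.159), where 0.109% of the 20167 features tested in adipose were called at an FDR of 0.20. The quasi-likelihood test of edgeR gave an FDR of 0.966. An exact two-sided permutation test on the log2 CPM, over the 70 ways to choose 4 of 8 calves, gave p = 0.257, with 0.0286 the smallest p it can reach.

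The adipose estimate rested in part on CON calf 1 and 5-HTP calf 5, the highest and the lowest calf. Without CON calf 1 the logFC was −0.33, and without 5-HTP calf 5 it was −0.31. Without 5-HTP calf 6 it was −0.87. None of the 8 fits that left out 1 calf passed the FDR of 0.20 (lowest FDR = 0.901, edgeR likelihood ratio test). With 4 calves per treatment, the interval of the adipose fold held both a level at 0.365 of CON and no change at all.

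**Figure D2:**
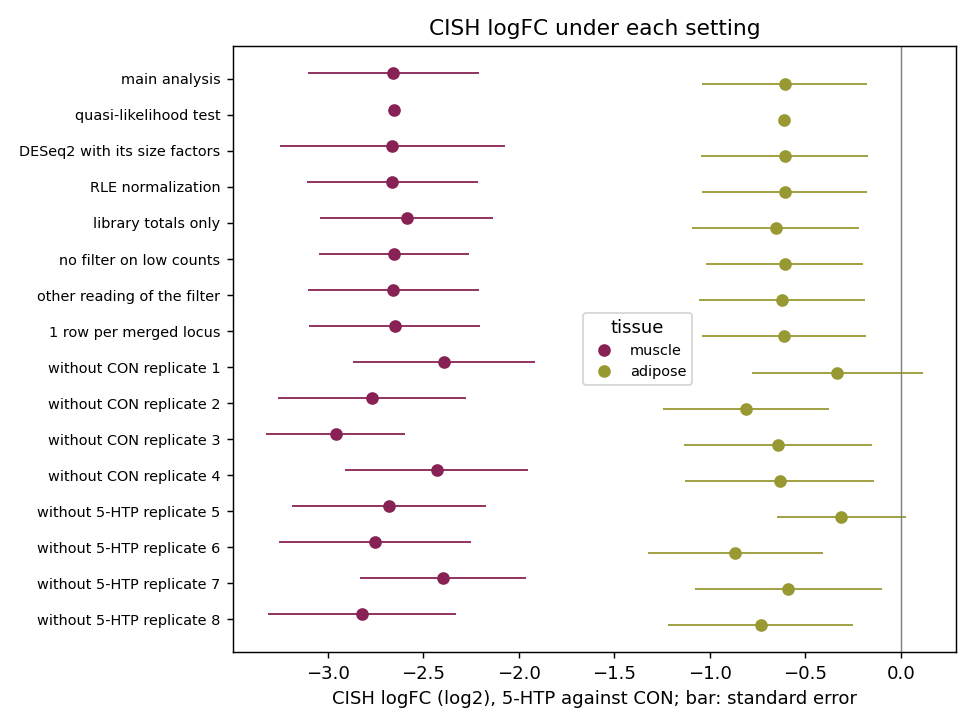
CISH logFC of 5-HTP against CON (horizontal axis, log2) under the main analysis, 7 alternatives and 8 fits without 1 calf, for muscle and adipose. Bars are standard errors, which the quasi-likelihood fit does not give. The muscle values lie between −2.96 and −2.39 and the adipose values between −0.87 and −0.31.

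Side by side, the muscle logFC (−2.66) was the more negative of the pair. In 1 model of all 16 libraries, the muscle logFC less the adipose logFC was −2.06 with a standard error of 0.67, and −1.84 with a standard error of 0.55 when the calf number was a block. This difference contains the muscle contrast by which CISH was picked and is given without a test.

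Where CISH stood within each library does not depend on the scaling between libraries. Among the features tested in muscle, CISH had more CPM than 82.8% to 96.9% of them in CON calves and than 51.9% to 76.5% in 5-HTP calves. In adipose these percentiles were 84.2 to 95.4 in CON calves and 64.0 to 91.4 in 5-HTP calves. CPM are not divided by transcript length, so these percentiles describe read abundance and not molecules. The lowest percentiles were those of 5-HTP calf 7 in muscle and 5-HTP calf 5 in adipose.

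Levels in both tissues were compared on a common TMM scale over the 16 libraries. On this scale, the mean in muscle was 204 ± 119 CPM in CON and 32.0 ± 12.8 CPM in 5-HTP. In adipose it was 76.8 ± 31.1 CPM in CON and 50.5 ± 25.9 CPM in 5-HTP (SD, n = 4 each). The order was muscle CON, adipose CON, adipose 5-HTP and muscle 5-HTP, and neighbours in this order overlapped. CON calf 3 in muscle (59.1 CPM) lay inside the range of CON adipose (42.5 to 118 CPM), the adipose ranges overlapped between treatments, and 5-HTP calf 5 in adipose (15.4 CPM) lay inside the range of 5-HTP muscle (13.7 to 42.5 CPM).

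Over both treatments the mean log2 ratio of adipose to muscle was −0.38, with a standard error of 0.34. It did not pass the test (FDR = 0.321, edgeR likelihood ratio test), in a comparison where 78.1% of 21849 features were called. Without CON calf 3 the ratio was −0.52 and passed (FDR = 0.159, edgeR likelihood ratio test), where 16265 of 21308 features were called. The direction depended on the scaling: with library totals in place of TMM the ratio was 0.84 and passed in favour of adipose (FDR = 0.0170, edgeR likelihood ratio test). Under library totals most features were called, at 19803 of 21849. The change of scaling moved the median log2 ratio of all features from 0.14 to 1.33. Relative to that median, CISH was lower by nearly the same amount under both scalings, at −0.52 under TMM and −0.49 under library totals. Its ratio exceeded that of 33.8% of features under TMM and of 34.6% under library totals. Rescaling the libraries shifts the log2 ratio of every feature by nearly the same amount. That CISH kept its place among the features therefore follows from the rescaling and is no separate result.

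The study took both tissues from each calf, and the number in the labels was taken as the calf. The ratio could then also be read calf by calf. By deviations from group means, the adipose libraries of CON calves 1 and 2 did not match their own number best (r = −0.205 and −0.051). Under TMM over 16 libraries, the log2 ratio of adipose to muscle was −1.42, −1.86, 0.29 and −1.94 in CON calves 1 to 4. In 5-HTP calves 5 to 8 it was −1.11, 0.98, 1.83 and 0.54. Adipose was thus the lower tissue in CON calves 1, 2 and 4 and in 5-HTP calf 5, and the higher tissue in CON calf 3 and 5-HTP calves 6, 7 and 8. The lowest level was that of calf 7 in muscle and of calf 5 in adipose. With library totals in place of TMM, adipose was the lower tissue in CON calves 2 and 4 alone.

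**Figure D3:**
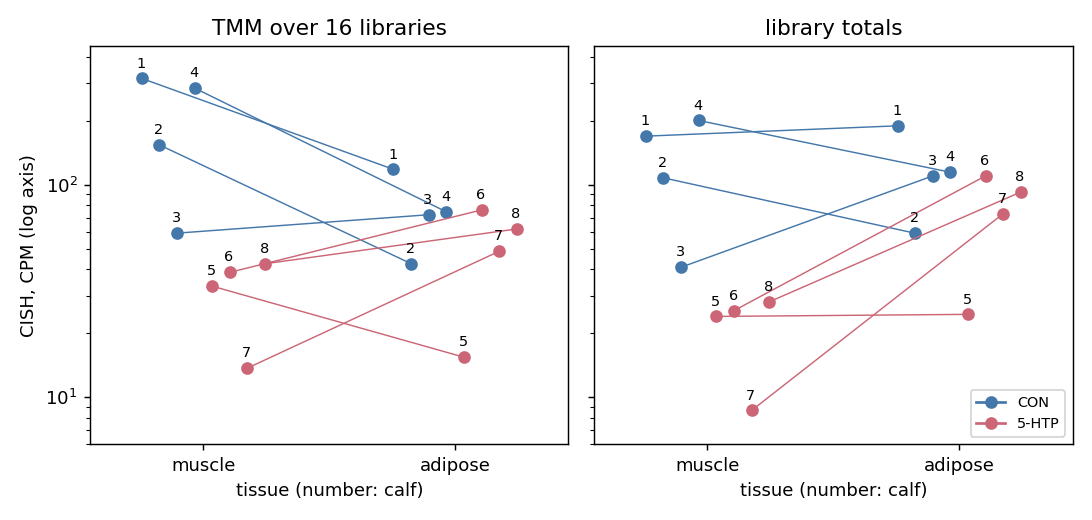
CISH in muscle and adipose of each calf in CPM (log axis), scaled by TMM over 16 libraries (left) and by library totals (right). A line joins the tissues of a calf, as taken from the number in the labels, and points are offset sideways by that number. Under TMM the line falls from muscle to adipose in calves 1, 2, 4 and 5, and library totals raise adipose relative to muscle in all calves.

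The spread of CISH between the calves of a group was described by its coefficient of variation. Counting error alone gave a coefficient of variation of 1.33% to 7.07% per library. The coefficients of variation between the 4 calves of a group were 39.4% in CON adipose, 51.0% in 5-HTP adipose, 57.8% in CON muscle and 40.3% in 5-HTP muscle. The highest calf of a group was 2.69 times the lowest in CON adipose, 4.83 times in 5-HTP adipose, 5.08 times in CON muscle and 3.17 times in 5-HTP muscle.

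This spread was wide beside other features of a like level. The biological coefficient of variation, which edgeR estimates between calves within treatments after removing counting error, was 42.1% for CISH in adipose. The median was 23.2% over 1984 features within 1.5-fold of its mean CPM, and 50 of these (2.52%) exceeded CISH. In muscle the value for CISH was 43.7%, the median over 1339 features of like level was 18.7%, and 6 of them (0.448%) exceeded CISH. CISH was therefore among the most variable features of its level within treatments in both tissues. Features are not independent replicates, and the within-treatment spread is a description here.

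**Figure D4:**
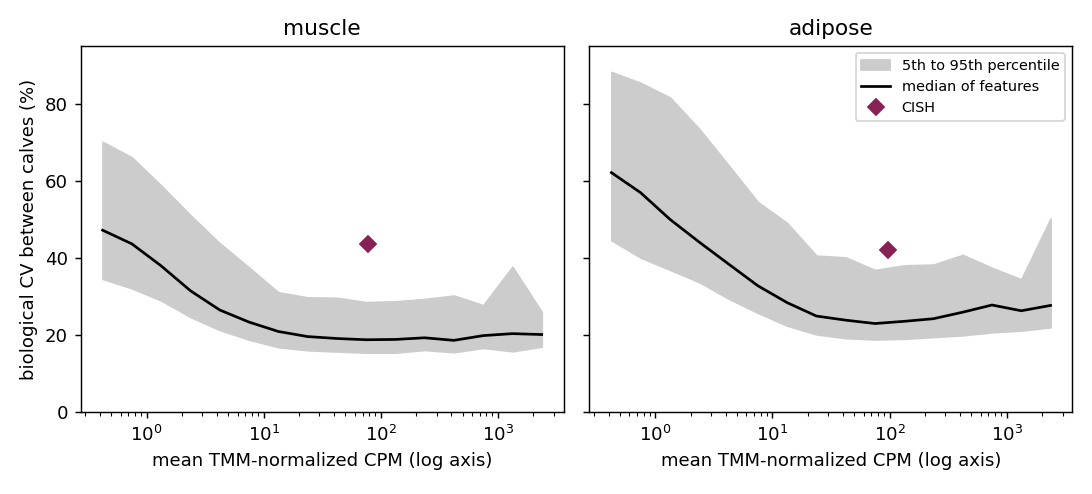
Biological coefficient of variation between calves within treatments (vertical axis, %) against mean TMM-normalized CPM (log axis) in muscle and adipose. The line is the median and the band the 5th to 95th percentile of features by level. CISH, the diamond, lies over the band in both tissues, at 43.7% in muscle and 42.1% in adipose.

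The features whose level followed CISH most closely across calves were ranked by Pearson's r of log2 CPM, as a description without a test. Over the 8 muscle libraries, r mixes the treatment difference with the spread between calves. ENSBTAG00000015327, for which no symbol was at hand, ranked highest of 14239 features (r = 0.968). Its own levels spanned a far narrower range than those of CISH, at 92.6 to 114 CPM in CON and 68.6 to 88.6 CPM in 5-HTP muscle. Its muscle logFC was −0.33 and did not pass (FDR = 0.997, edgeR likelihood ratio test). Among the features with a symbol, the highest were CSF1 (r = 0.925), CFD (r = 0.921) and IGFN1 (r = 0.896). CSF1 is a growth factor of macrophages, and IGFN1 is a muscle protein with immunoglobulin and fibronectin domains. In muscle CSF1 had 18.4, 13.0, 10.6 and 12.4 CPM in CON and 6.36, 9.60, 4.80 and 7.69 CPM in 5-HTP calves. As with CISH, calf 1 was the highest, calf 3 the lowest of CON, and calf 7 the lowest of all. For deviations from the means of each tissue and treatment over the 16 libraries, which leave the treatment difference out, r with CISH was 0.143 for CSF1 and −0.07 for CFD. That set also adds the adipose libraries, so it differs from the muscle set in tissue as well as in treatment. Deviations within muscle alone were not examined. CSF1, CFD and IGFN1 have a symbol here because the study listed them, like CISH, as lower in 5-HTP muscle. A high r over the 8 muscle libraries therefore follows in part from that choice.

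Over the 8 adipose libraries r with CISH was −0.05 for CSF1 and −0.14 for CFD, and the difference from muscle was not tested. ENSBTAG00000002382 had the highest r of 17000 features (0.931). Of those with a symbol, EGR1 (r = 0.515, with 6.22% of all features higher), CCN2 (r = 0.311, 18.5% higher) and FOS (r = 0.297, 19.8% higher) came highest. This order depended on the measure: by Spearman's rho it was CR2 (0.595), CCN2 (0.5) and RGS16 (0.429), with EGR1 at 0.381.

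When each library was expressed as its deviation from the mean of its own tissue and treatment, which takes the treatment difference out, ENSBTAG00000010504 had the highest r of 15954 features over the 16 libraries (0.866). In muscle it had 98.2, 59.6, 53.1 and 83.9 CPM in CON and 67.8, 57.3, 55.9 and 77.6 CPM in 5-HTP calves. It shared with CISH the high calves 1 and 4 and the low calves 3 and 7, and also the low calf 5 in adipose (41.0 CPM, where the 7 others had 54.2 to 71.5 CPM). Its treatment logFC was −0.19 in muscle and 0.09 in adipose, and neither passed (FDR = 0.997 and 0.999, edgeR likelihood ratio test). PAPSS2, which makes the sulfate donor of sulfation reactions, had r = 0.532, IGFN1 0.457 and RGS16, a brake on G protein signalling, 0.433. Of all features, 3.56% had a higher r than PAPSS2, 6.91% than IGFN1 and 8.21% than RGS16. PAPSS2 had at most 26 counts in a muscle library and IGFN1 at most 8 in an adipose library, so both values rest in part on libraries near 0. With a pseudocount of 0.1 in place of 0.5, r was 0.421 for PAPSS2 and 0.272 for IGFN1.

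EGR1 and FOS are immediate early transcription factors that are induced within minutes of growth factor signals. The study listed both as lower in 5-HTP muscle from these same libraries, so testing them again is no independent evidence. Their FDR was 0.00166 and 0.00693 by the edgeR likelihood ratio test, and 0.966 and 0.978 by its quasi-likelihood test. EGR1 and FOS did not order the CON calves as CISH did. EGR1 had 144, 687, 81.8 and 37.8 CPM in CON muscle and 26.8, 19.5, 18.6 and 11.4 CPM in 5-HTP muscle. FOS had 31.0, 116, 26.4 and 22.5 CPM in CON muscle and 5.69, 6.83, 8.52 and 15.8 CPM in 5-HTP muscle. Both peaked in CON calf 2 and were lowest among CON in calf 4, where CISH was 192 CPM and close to its maximum. Over the 8 muscle libraries r with CISH was 0.619 for EGR1 and 0.681 for FOS. Over the 8 adipose libraries it was 0.515 and 0.297. For deviations from the group means, over the 16 libraries of both tissues together, it was 0.234 and 0.215. Likeness within the muscle groups alone was not examined.

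**Figure D5:**
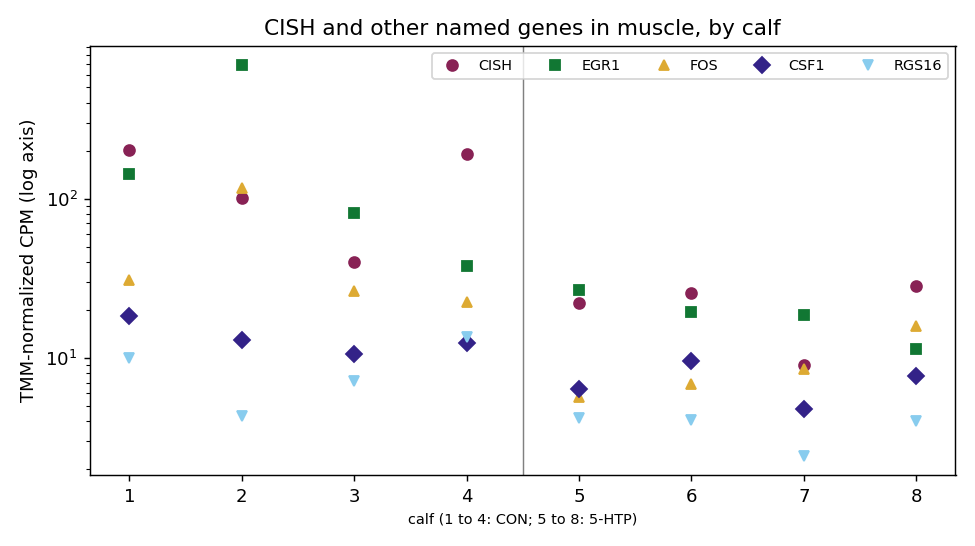
TMM-normalized CPM (log axis) of CISH, EGR1, FOS, CSF1 and RGS16 in muscle of each calf, with CON left and 5-HTP right of the vertical line. EGR1 and FOS peak in calf 2 (687 and 116 CPM), whereas CISH is highest in calves 1 and 4 (202 and 192 CPM).

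The likelihood ratio test of edgeR called 0.201% of the features tested in muscle. Besides CISH, 28 features with a symbol were tested in muscle, of which 16 were lower and 6 higher in 5-HTP calves at an FDR of 0.20. The quasi-likelihood test called 1 of these 22, IFI47. The symbols come from the study's own lists of DEGs in these libraries, so the counts are no independent evidence. Of the 16 lower ones, 14 could be tested in adipose and none was called there (edgeR, lowest FDR = 0.767), where 0.109% of all features tested were called. Their adipose logFC ranged from −1.07 (CFD) to 0.85 (PAPSS2) with 8 below 0, and the −0.61 of CISH lay within that range.

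The markers of other cell types that could be named were those in the study's own list of muscle DEGs, so that all 4 had lower levels in 5-HTP muscle was fixed by that list, and markers that did not change could not appear. By the likelihood ratio test of edgeR, which called 0.201% of the features tested in muscle, all 4 passed. The FDR of that test was 0.0842 for CFD, 0.177 for C1QB, 0.188 for SIGLEC1 and 0.177 for CR2. By the quasi-likelihood test of edgeR none of the 4 passed (FDR = 0.978). CFD averaged 4.68 ± 1.30 CPM in CON and 1.80 ± 0.62 CPM in 5-HTP muscle (SD, n = 4 each). The macrophage markers C1QB and SIGLEC1, which were 2 of 6 listed, averaged 9.01 and 1.61 CPM in CON and 3.03 and 0.57 CPM in 5-HTP muscle. CR2, a complement receptor of B cells and 1 of 4 listed, averaged 2.13 and 0.52 CPM. The assembled TTN locus averaged 42.3 ± 12.1 CPM in CON and 17.3 ± 4.19 CPM in 5-HTP muscle, and whether it reflects titin as a whole was not tested. The part of these differences in the CISH result was not tested. In bulk tissue, fewer cells with CISH and less CISH RNA per cell cannot be told apart.

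The list of JAK-STAT genes drawn up with CISH (78 symbols, among them GHR, PRLR, JAK2, STAT5A, STAT5B, SOCS2 and IGF1) was not analysed here, since CISH was the only one of them that the sources paired with an identifier of the count tables.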

How the data were processed

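Poly-A RNA-Seq libraries of adipose and muscle of 8 calves were used. The authors trimmed reads with Trim Galore 0.4.4, mapped them to ARS-UCD1.2 with HISAT2, merged transcripts with Cufflinks 2.2.1 and counted them with HTSeq, and the deposited values are raw counts for 44265 features per library. Groups came from the labels' tissue and treatment, and the number in the labels (1 to 8 in both tissues) was taken as the calf.

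CISH and all lists were chosen with earlier results of these data known. Features that reached 10 counts in 4 or more libraries were fitted in R 4.3.3 with edgeR 4.0.16 (TMM, default dispersions, likelihood ratio test, Benjamini-Hochberg FDR of 0.20), each tissue alone. Tissues were compared in 1 model of 16 libraries. Standard errors came from the negative binomial fit. Likeness used log2 of CPM plus 0.5, for features with a mean CPM of at least 1. Beyond CISH, the genes named were, in each of the 3 library sets, the feature with the highest r and the 3 with a symbol that came highest, plus EGR1 and FOS and tissue or cell type markers. C1QB, SIGLEC1, CR2 and TTN are markers; PAPSS2 and RGS16 came from likeness. Symbols were those the study's DEG tables pair with identifiers (31 features).

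Alternatives were the quasi-likelihood test, DESeq2 1.42.0, RLE, library totals, other filters, 1 row per merged locus and leaving out each calf. The models were tested on simulated data. Figures used Python 3.11.15 and matplotlib 3.10.9. No libraries of a group matched within sampling noise.

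Same-numbered libraries of the tissues were compared by their deviations from group means: r averaged 0.106 (−0.205 to 0.257) over 15955 features, and 6 of 8 libraries matched their own number best. Those of CON calves 1 and 2 did not (r = −0.205 and −0.051). The study took both tissues from the same calves.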

Additional observations from a re-analysis of the deposited data

How the results depend on the processing

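The CISH logFC in adipose lay between −0.66 and −0.61 under 7 alternatives and between −0.87 and −0.31 in 8 fits without 1 calf, with the call unchanged in all 15. The muscle logFC lay between −2.66 and −2.59, and between −2.96 and −2.39 without 1 calf. The muscle logFC less the adipose logFC was −2.08 to −1.84 and −2.38 to −1.83 without 1 calf. The log2 ratio of adipose to muscle was the value that depended on the processing. It was 0.84 with library totals only, −1.39 in CON calves alone and 0.71 in 5-HTP calves alone, and −0.52 to −0.21 without 1 calf. The values by treatment contain the muscle difference. With the calf number as a replicate block this ratio was −0.34 (FDR = 0.297, edgeR likelihood ratio test) and the muscle less adipose logFC was −1.84, so the block changed no call.

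The number of features called depended on the test. The likelihood ratio test called 22 features in adipose and 34 in muscle, where the quasi-likelihood test called 1 in each, IFI47. Without 1 calf these numbers ranged from 4 to 56 in adipose and from 13 to 188 in muscle, and library totals gave 21 in muscle. Among the likeness values, 5 moved by at least 0.1 in r under an alternative: in adipose EGR1 (0.381) and CCN2 (0.5) under Spearman's rho, and for deviations RGS16 (0.565) under Spearman's rho and PAPSS2 (0.421) and IGFN1 (0.272) with a pseudocount of 0.1. The alternatives for the JAK-STAT list were not run, as no other member was paired with an identifier. With 4 calves per group, precision is limited by the spread between calves and not by depth.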
